A study of Homo sapiens with 6 samples.

Results

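The genes described are those that encode WNT ligands, their receptors and co-receptors, their secreted antagonists and a small core of the downstream pathway. They were picked by gene symbol, but earlier results of these data were known when they were chosen. They were the symbols WNT, FZD, DKK and SFRP with their numbers, together with LRP5, LRP6, AXIN1, AXIN2, APC, RNF43, ZNRF3, TCF7, TCF7L1, TCF7L2 and LEF1. The tables held 47 of them among 18126 gene symbols: 18 WNT ligands, 10 Frizzled receptors, 2 LRP co-receptors, 4 DKK genes, 4 SFRP genes, 2 receptor ubiquitin ligases, 3 scaffolds and 4 TCF/LEF factors. The 6 libraries are RNA-seq of 786-O, a cultured line from a human renal tumour of the clear cell type. The labels name 3 of them Control and the other 3 siTEAD4, after an siRNA against TEAD4, the DNA-binding partner of the coactivator YAP. All 6 came from the same line, and no genotype, time or dose was used here to separate them. Column headers in the tables name a TEAD inhibitor and a vehicle in place of the labelled siRNA and control, so each direction below holds for the libraries labelled siTEAD4. The labels do not tell whether replicate libraries were grown separately, so the p-values rest on a spread that may be technical.

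WNT proteins are secreted lipid-modified ligands that bind Frizzled receptors. With the co-receptors LRP5 or LRP6 they stop the destruction complex of AXIN, APC and kinases from marking beta-catenin for degradation, and beta-catenin then acts with TCF/LEF factors on target genes. Other WNT responses run through Frizzled and the receptors ROR1, ROR2 or PTK7 without beta-catenin and steer cell polarity and movement. SFRP proteins bind WNT outside the cell, DKK1 blocks the LRP co-receptors, and ZNRF3 and RNF43 remove Frizzled from the cell surface. WNT signals are known for their part in forming the renal tubule in the embryo.

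Levels are in FPKM (fragments counted per length of gene and per size of library), a unit that can be compared between genes per length. Read counts are not in the tables, so the depth behind each value is unknown and no counting interval is given; 15676 to 15857 symbols were above 0 in a library. TEAD4 itself was lower in every siTEAD4 library (8.92, 7.65 and 7.52 FPKM for libraries 1, 2 and 3) than in any Control library (12.52, 16.99 and 11.28 FPKM) (log2 fold change -0.68 ± 0.143 SE, limma adjusted p = 0.00521). A two-sided exact permutation test of 3 against 3 gave p = 0.1 for TEAD4, the smallest it can give. Control 1 and Control 2 stood apart from each other by transcript length: in the 1 of 3 length classes with the longest transcripts the median log2 difference from the other libraries of the group was 0.203 in Control 1 and -0.237 in Control 2, against -0.024 to 0.028 in the siTEAD4 libraries. The renal marker genes PAX8 (66.5 to 88.5 FPKM), LHX1 (10.3 to 15.4 FPKM) and EPAS1 (33.3 to 49.4 FPKM) were present in all 6 libraries. LHX1 and EPAS1 were higher in each siTEAD4 library than in any Control library. NDUFA4L2, often high in this tumour type, stayed at 0.21 to 0.67 FPKM, and CA9 lay at 1.38 to 2.25 FPKM. The lineage marker CDH6 moved with the group, at 132.71 to 180.14 FPKM in Control and 28.6 to 30.7 FPKM in siTEAD4. CDH6 was not the only one of the 9 renal marker genes to fall without overlap. Markers of endothelial cells summed to 0.11 to 0.20 FPKM, with 4 of 4 genes under 1 FPKM in every library. Of 4 leukocyte markers 3 stayed under 1 FPKM in every library, PTPRC at 0.15 to 0.42 FPKM, and only the lysosomal gene CD68 was higher, at 26.5 to 38.2 FPKM in Control and 19.3 to 21.5 FPKM in siTEAD4. Fibroblasts also express SFRP2, SFRP4, DKK3 and ROR2. Of the 4 fibroblast and pericyte markers, DCN was at 0 in all 6 libraries, 3 of the 4 were under 1 FPKM throughout, and LUM lay at 1.80 to 2.40 FPKM in Control and 0.67 to 0.75 FPKM in siTEAD4. Their sum was 2.41 to 3.32 FPKM in Control and 1.42 to 1.58 FPKM in siTEAD4, and its part in the results was not tested. In bulk RNA, fewer cells of a type and less RNA per cell cannot be told apart.

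Promoter sequences are shown for 3 genes around which the values below turn: SFRP2, which had the largest fall, FZD8, which had the largest rise, and DKK1, the best known DKK antagonist, which was at or near 0. They run from 250 bases before to 50 bases after the RefSeq start on GRCh38.p14, on the strand of the gene, and capitals mark motif letters. The windows are chr4:153789034-153789333 (minus strand) for SFRP2, chr10:35642247-35642546 (minus strand) for FZD8 and chr10:52314031-52314330 (plus strand) for DKK1.
SFRP2: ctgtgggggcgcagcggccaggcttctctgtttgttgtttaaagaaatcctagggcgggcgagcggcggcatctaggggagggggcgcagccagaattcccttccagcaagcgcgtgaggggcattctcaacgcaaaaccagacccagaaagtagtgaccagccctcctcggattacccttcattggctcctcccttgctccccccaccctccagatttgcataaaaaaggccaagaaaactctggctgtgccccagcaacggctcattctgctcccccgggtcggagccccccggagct
FZD8: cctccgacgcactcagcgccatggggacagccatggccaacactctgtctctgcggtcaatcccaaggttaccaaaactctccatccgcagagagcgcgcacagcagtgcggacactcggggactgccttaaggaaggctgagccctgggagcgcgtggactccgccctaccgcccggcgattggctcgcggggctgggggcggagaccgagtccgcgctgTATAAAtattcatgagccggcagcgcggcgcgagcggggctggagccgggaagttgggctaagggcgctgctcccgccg
DKK1: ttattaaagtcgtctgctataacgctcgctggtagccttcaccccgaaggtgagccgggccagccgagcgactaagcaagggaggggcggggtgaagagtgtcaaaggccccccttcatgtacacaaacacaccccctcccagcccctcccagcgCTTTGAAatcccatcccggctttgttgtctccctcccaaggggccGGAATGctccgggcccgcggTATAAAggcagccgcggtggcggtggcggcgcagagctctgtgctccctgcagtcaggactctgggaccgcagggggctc
The letters searched, on both strands, were CTTTGAT and CTTTGAA for TCF/LEF, GGAATG for TEAD, TGACTCA and TGAGTCA for AP-1 and, added after the sequences were seen, TATAAA for the TATA box. RefSeq windows were matched for 33 of the 47 genes, of which 15 reached 1 FPKM in a group mean. No window was matched for WNT7B, WNT10B, FZD2, FZD3, FZD6, FZD7, LRP6, DKK3, ZNRF3 or AXIN2, which also reached it. In DKK1 the capitals mark CTTTGAA from base -95, GGAATG from base -50 and TATAAA from base -30, counted from the start; in FZD8 they mark TATAAA from base -29, and the SFRP2 window holds none of these letters. None of the 15 windows of genes at 1 FPKM or more held the TCF/LEF, TEAD or AP-1 letters, which were in 6.86%, 14.0% and 4.95% of all 35116 windows of this length and in 3.69%, 10.7% and 2.88% of those of 9326 tested genes. TATAAA was in 11.5% of all windows, in 5.19% of those of tested genes and, among the 33, in those of FZD8, DKK1 and TCF7. In TCF7 it lay on the opposite strand, and the strand of the gene reads TTTATA from base -32. Of the 18 low or silent genes, DKK1 and WNT16 held GGAATG. A match is letters only, and a window without one says nothing of the factor.

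Of the 47 genes, 25 reached 1 FPKM in at least 1 group mean, 15 were low (above 0 in some library but under 1 FPKM in both means) and 7 were at 0 in every library. The 25 were also the ones that passed the filter of at least 1 FPKM in at least 3 of 6 libraries and were tested. Of these 25, 14 were lower and 2 higher in siTEAD4 at a Benjamini-Hochberg adjusted p under 0.05 in limma, while 9 did not pass. Across all 11411 genes tested, 44.9% passed, 18.8% lower and 26.1% higher, so in this comparison many genes moved. The WNT set was chosen with earlier results of these data known, so its counts beside these shares are a description. WNT10B and SFRP4 passed the filter through the Control libraries alone and so had to differ; with a filter on the mean of all 6 libraries, 12 of 23 were lower and 2 higher. The median log2 fold change of FPKM + 1 was -0.39 over the 25 and 0.09 over all genes tested. The groups did not overlap in 17 of the 25, 15 of them lower in siTEAD4, against 57.7% of all genes. A fall of at least 1 on the log2 scale was seen in 3 of the 25, FZD6, LRP5 and SFRP2, against 3.26% of all genes. The balance of small rises and falls in the whole table moved with scaling, from 58.2% of called genes higher to 46.9% after each library was rescaled to 1 median and 45.8% with TMM-like scaling; there 14 of the 25 genes were lower and 1 higher.

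**Figure D1:**
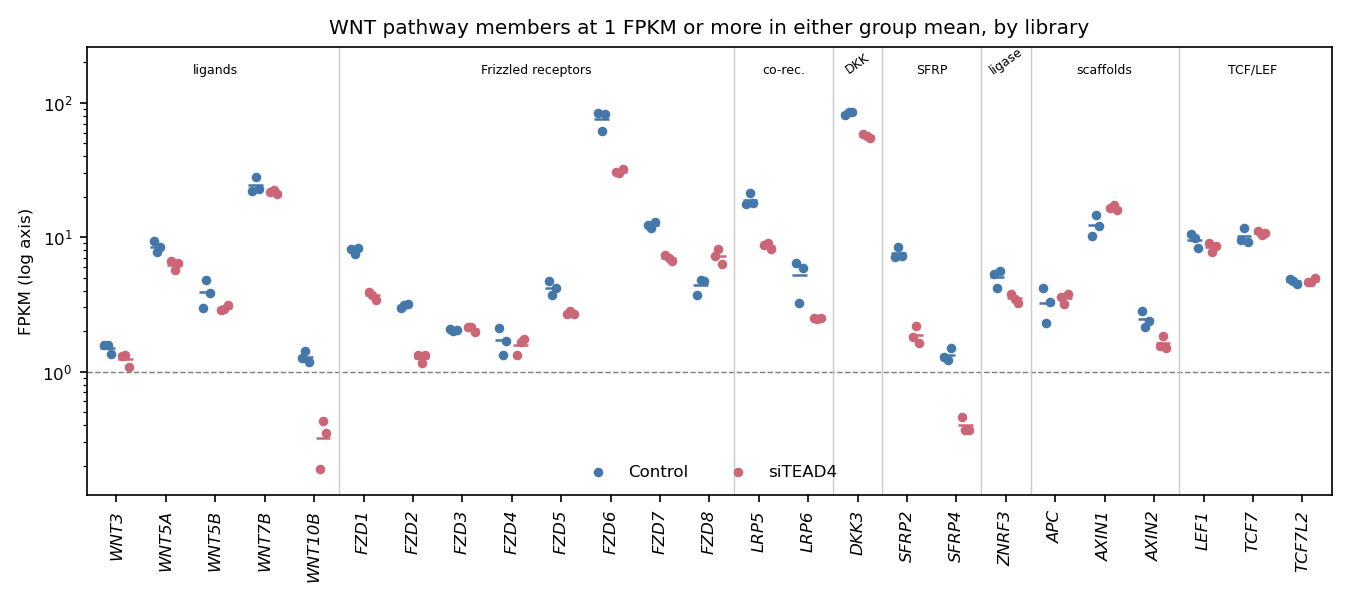
FPKM on a log axis of the 25 genes with at least 1 FPKM in either group mean; points are libraries, short bars are group means (n = 3) and the dashed line is 1 FPKM. FZD6 and DKK3 sit highest, and the siTEAD4 points of WNT10B and SFRP4 fall under the line.

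**Figure D2:**
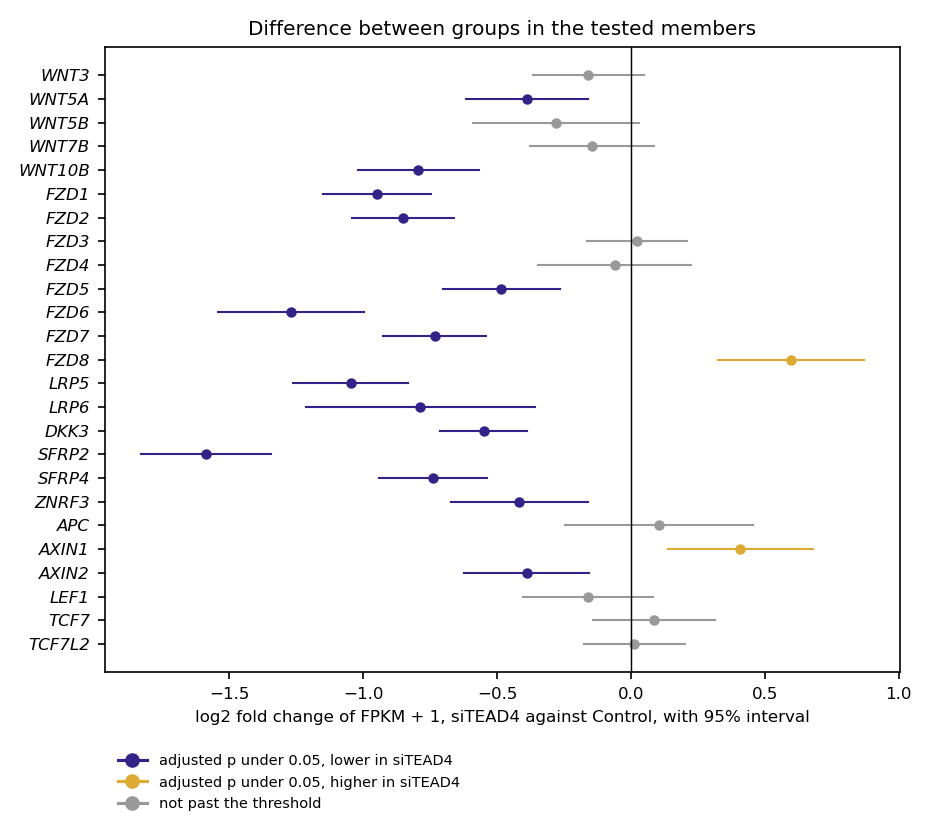
Log2 fold change of FPKM + 1, siTEAD4 against Control, for the 25 tested genes with 95% intervals from limma (3 libraries a group). 14 intervals of called genes lie below 0, and those of FZD8 and AXIN1 lie above it.

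Among the ligands, WNT7B dominated in both groups and only lower ranking ligands changed. The 18 ligands together summed to 40.7 ± 3.55 FPKM over the Control libraries (SD, n = 3) and to 33.3 ± 0.529 FPKM over those of siTEAD4, of which WNT7B held 57.1% to 62.7% and 64.1% to 67.3%. WNT7B, a ligand known for building the collecting ducts of the kidney medulla in mice, was at 22.08, 28.09 and 22.70 FPKM in Control and 21.69, 22.63 and 20.97 FPKM in siTEAD4. These groups overlap, and WNT7B did not pass (log2 fold change -0.14, 95% interval -0.38 to 0.09, limma adjusted p = 0.275). WNT5A, the best studied ligand of beta-catenin-independent responses, was at 9.40, 7.73 and 8.39 FPKM in Control and 6.64, 5.70 and 6.41 FPKM in siTEAD4. All siTEAD4 values of WNT5A lay below all Control values, and it fell (-0.39 ± 0.10 SE, limma adjusted p = 0.0132), although not without siTEAD4 2 (adjusted p = 0.0710). Its paralogue WNT5B overlapped, at 2.97, 4.84 and 3.86 FPKM and 2.88, 2.93 and 3.13 FPKM, and did not pass (-0.28, limma adjusted p = 0.124). It passed when Control 1 was left out (-0.42, adjusted p = 0.0109). Removing trends with transcript length and GC content, an alternative chosen after seeing the data, also gave a call (-0.23, adjusted p = 0.0353).

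WNT10B, a ligand that acts through beta-catenin, was at 1.27, 1.43 and 1.17 FPKM in Control and 0.19, 0.43 and 0.35 FPKM in siTEAD4. That is 25.1% of the Control mean (-0.79 ± 0.0997 SE, limma adjusted p = 0.000367), and the scale of FPKM + 1 understates the change at this level. WNT10B passed the filter through the Control libraries alone and so had to differ. WNT3 lay at 1.36 to 1.58 FPKM in Control and 1.08 to 1.34 FPKM in siTEAD4; its groups did not overlap, but it did not pass (-0.16, limma adjusted p = 0.185). In Control, the order was WNT7B, WNT5A, WNT5B, WNT3 and WNT10B, and only WNT3 and WNT10B overlapped in their levels; in siTEAD4 no neighbours in that order overlapped.

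The other 13 ligands were low or at 0. WNT1, WNT2, WNT3A and WNT9A were at 0 in all 6 libraries. The highest of the rest was WNT2B, at 0.77, 0.76 and 0.61 FPKM in Control and 0.48, 0.46 and 0.50 FPKM in siTEAD4. WNT10A was at 0.12 FPKM in each Control library and at 0, 0.03 and 0 FPKM in siTEAD4. With no filter on low values, WNT2B (-0.21, limma adjusted p = 0.0221) and WNT10A (-0.15, limma adjusted p = 0.00266) were called, so that 16 of 40 genes above 0 were lower and 2 higher. In that fit 2314 of all 17283 genes were lower (13.4%) and 2693 higher. WNT4, which drives tubule formation in the mouse embryonic kidney, was at 0.04 to 0.13 FPKM in Control and 0.01 to 0.07 FPKM in siTEAD4. WNT9B, its upstream inducer in that setting, was at 0.08 to 0.26 FPKM over the 6 libraries. WNT6, WNT7A, WNT8A, WNT8B and WNT16 stayed at or under 0.10 FPKM in every library.

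The Frizzled receptors were carried by FZD6, and 5 of the 8 expressed members fell while FZD8 rose. FZD6, known for planar polarity and for opposing beta-catenin signals, lies on chromosome 8 (103298433 to 103332866, plus strand, GRCh38, GENCODE release 29). It was at 84.64, 61.81 and 82.67 FPKM in Control and 30.48, 29.96 and 31.96 FPKM in siTEAD4. Control 2 was the lowest of its group, yet it stood far above the siTEAD4 libraries. The mean fell to 40.3% of Control (-1.27 ± 0.120 SE, limma adjusted p = 7.89e-05), with a log2 fold change of -1.41 to -1.19 when any 1 library was left out. The sum over all 10 Frizzled genes went from 112 ± 14.0 to 56.4 ± 0.301 FPKM (SD, n = 3), of which FZD6 held 64.4% to 70.1% in Control and 52.9% to 57.0% in siTEAD4. Without FZD6 the sum was 35.8 ± 1.49 and 25.6 ± 1.34 FPKM.

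FZD1, FZD2 and FZD7 form a closely related subfamily, each with 1 coding exon in GENCODE, and the 3 fell. FZD7, a receptor often linked to beta-catenin signalling in tumours and stem cells, was at 12.34, 11.71 and 12.96 FPKM in Control and 7.38, 7.04 and 6.65 FPKM in siTEAD4 (-0.73 ± 0.0851 SE, limma adjusted p = 0.000245). FZD1 was at 8.23, 7.52 and 8.36 FPKM and 3.91, 3.72 and 3.43 FPKM, 45.9% of the Control mean (-0.95 ± 0.0891 SE, limma adjusted p = 7.67e-05). FZD2, which also binds WNT5A, was at 2.98, 3.15 and 3.17 FPKM and 1.33, 1.16 and 1.33 FPKM, 41.1% of the Control mean (-0.85 ± 0.0845 SE, limma adjusted p = 0.000104). In each of the 3 genes the groups were far apart and the libraries of a group close together. Leaving out any 1 library left the 3 calls in place, with a highest adjusted p of 0.00298 for FZD7.

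FZD5 and FZD8 form another related pair, and they moved in opposite directions. FZD5 was at 4.72, 3.74 and 4.20 FPKM in Control and 2.68, 2.81 and 2.68 FPKM in siTEAD4 (-0.48 ± 0.0964 SE, limma adjusted p = 0.00393). FZD8 (chromosome 10, 35638249 to 35642278, minus strand) was at 3.74, 4.78 and 4.72 FPKM in Control and 7.19, 8.13 and 6.27 FPKM in siTEAD4, 163% of the Control mean (0.60 ± 0.120 SE, limma adjusted p = 0.00399). The FZD8 to FZD5 ratio within a library, which no scaling of libraries can move, was 0.792, 1.278 and 1.124 in Control and 2.683, 2.893 and 2.340 in siTEAD4, as a description of a pair chosen after its values were seen. FZD8 kept its call in each of 19 alternatives, with adjusted p values from 5.16e-05 to 0.0230. In Control the level of FZD8 overlapped with that of FZD5, and in siTEAD4 with that of FZD7.

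FZD3 and FZD4 did not pass. FZD3, a receptor of axon guidance and polarity, was at 1.99 to 2.06 FPKM in Control and 1.96 to 2.15 FPKM in siTEAD4 (log2 fold change 0.02, 95% interval -0.16 to 0.21, limma adjusted p = 0.826). FZD4, a receptor of the secreted protein norrin in blood vessels of the eye, was at 1.32 to 2.11 FPKM and 1.32 to 1.76 FPKM (-0.06, 95% interval -0.35 to 0.22, limma adjusted p = 0.715). FZD9 and FZD10 were at 0 in all 6 libraries. The order in Control was FZD6, FZD7, FZD1, FZD8, FZD5, FZD2, FZD3 and FZD4, where FZD8 with FZD5 and FZD3 with FZD4 overlapped; in siTEAD4 FZD8 stood second and FZD2 last, with FZD8 and FZD7 and then FZD4 and FZD2 overlapping.

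**Figure D3:**
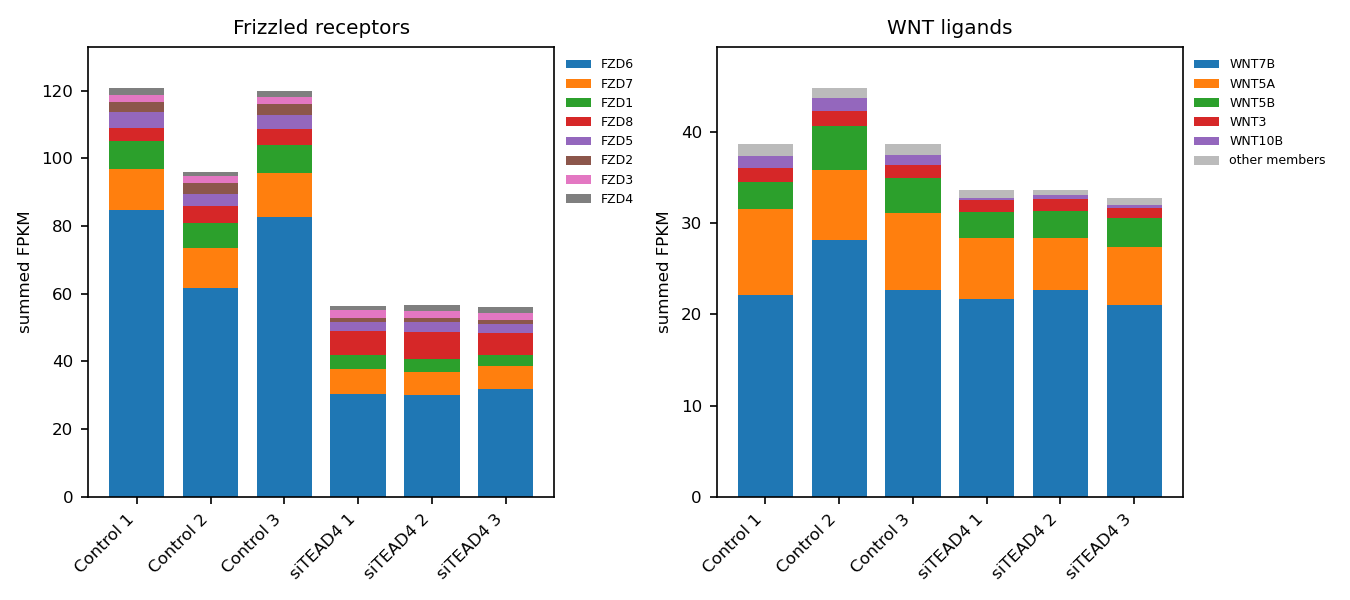
Summed FPKM of the Frizzled receptor genes (left) and WNT ligand genes (right) in each of the 6 libraries, stacked by gene from an axis at 0. The Frizzled bars are 96.02 to 120.82 FPKM in Control and 56.04 to 56.63 FPKM in siTEAD4, and WNT7B makes up most of each ligand bar.

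The co-receptor genes LRP5 and LRP6 fell together. LRP5 (chromosome 11, 68312609 to 68449275, plus strand) was at 17.77, 21.19 and 17.97 FPKM in Control and 8.73, 9.01 and 8.19 FPKM in siTEAD4, 45.5% of the Control mean (-1.05 ± 0.0946 SE, limma adjusted p = 6.34e-05). LRP6 was at 6.43, 3.26 and 5.91 FPKM in Control and 2.49, 2.47 and 2.52 FPKM in siTEAD4 (-0.79 ± 0.188 SE, limma adjusted p = 0.00942). Control 2 held the most LRP5 of the Control libraries but the least LRP6, and in LRP6 it still lay above each siTEAD4 library. The longest LRP6 transcript has 10020 bases, and the part of transcript length in the low value of Control 2 was not tested. APC, with a longest transcript of 10701 bases, was at 2.30 FPKM in Control 2 against 4.16 and 3.31 FPKM. FZD3, with 13740 bases, was at 1.99 FPKM there against 2.06 and 2.04 FPKM. Without Control 2 the change of LRP6 was -1.04 (adjusted p = 3.78e-06), and after removal of the length and GC trends -0.81 (adjusted p = 0.000132). The LRP5 to LRP6 ratio overlapped between the groups, at 2.76 to 6.50 in Control and 3.25 to 3.65 in siTEAD4.

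The secreted antagonists fell as well, where they were expressed. SFRP2, which binds WNT outside the cell, lies on chromosome 4 (153780592 to 153789120, minus strand) and had the largest change of the 25 genes. It was at 7.11, 8.50 and 7.30 FPKM in Control and 1.81, 2.17 and 1.64 FPKM in siTEAD4, 24.5% of the Control mean (-1.59 ± 0.107 SE, limma adjusted p = 1.4e-05). Its log2 fold change was -1.66 to -1.52 when any 1 library was left out. SFRP4 was at 1.29, 1.22 and 1.51 FPKM in Control and 0.46, 0.37 and 0.37 FPKM in siTEAD4, 29.9% of the Control mean (-0.74 ± 0.0886 SE, limma adjusted p = 0.00029). It passed the filter through the Control libraries alone and so had to differ. SFRP1, which is lost in many tumours, and SFRP5 were at or near 0, with 0.01 FPKM as the only value above 0.

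DKK3, a secreted protein of the Dickkopf family whose action on WNT is less settled than that of DKK1, had the highest group mean of the 47 genes in both groups, although its Control range overlapped with that of FZD6. It was at 80.69, 85.03 and 84.72 FPKM in Control and 58.34, 56.78 and 55.07 FPKM in siTEAD4, 68.0% of the Control mean (-0.55 ± 0.0715 SE, limma adjusted p = 0.000437). DKK3 made up at least 99.0% of the DKK sum in every library. DKK1 was at 0.03 FPKM in Control 2 and at 0 in the other 5 libraries. DKK2 stayed at or under 0.03 FPKM. DKK4 was at 0.22 to 0.32 FPKM in Control and 0.28 to 0.57 FPKM in siTEAD4, with overlap.

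Feedback and scaffold genes moved in different directions. ZNRF3, the ligase that clears Frizzled, was at 5.35, 4.20 and 5.56 FPKM in Control and 3.80, 3.47 and 3.25 FPKM in siTEAD4 (-0.42 ± 0.112 SE, limma adjusted p = 0.0159). Its call ended without Control 3, siTEAD4 2 or siTEAD4 3 (adjusted p from 0.0589 to 0.0709). Its paralogue RNF43 was low, at 0.09 to 0.16 FPKM in Control and 0.04 to 0.06 FPKM in siTEAD4, with no overlap; with no filter on low values it did not pass (-0.09, limma adjusted p = 0.0616). AXIN2, a scaffold that beta-catenin itself induces, was at 2.81, 2.16 and 2.40 FPKM and 1.56, 1.84 and 1.51 FPKM (-0.39 ± 0.103 SE, limma adjusted p = 0.0147), and its call ended without siTEAD4 1 (adjusted p = 0.0625) or siTEAD4 3 (adjusted p = 0.0661).

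AXIN1, the constitutive scaffold, was higher in siTEAD4, at 10.29, 14.62 and 12.13 FPKM in Control and 16.40, 17.35 and 15.97 FPKM in siTEAD4 (0.41 ± 0.120 SE, limma adjusted p = 0.0225). This call was not firm: it ended when Control 3 or any of the siTEAD4 libraries was left out (0.0587 to 0.0865), after rescaling to 1 median (0.0622) and with TMM-like scaling (0.0514). After removal of the length and GC trends AXIN1 passed (0.53, adjusted p = 7.87e-05). The AXIN2 to AXIN1 ratio was 0.273, 0.148 and 0.198 in Control and 0.095, 0.106 and 0.095 in siTEAD4, as a description of a pair chosen after its values were seen. APC was at 4.16, 2.30 and 3.31 FPKM in Control and 3.57, 3.17 and 3.80 FPKM in siTEAD4 and did not pass (0.11, limma adjusted p = 0.602). Control 2 was the lowest of its group.

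The TCF/LEF factors, the DNA-binding partners of beta-catenin, did not pass. TCF7 was at 9.48, 11.63 and 9.28 FPKM in Control and 11.04, 10.41 and 10.83 FPKM in siTEAD4 (log2 fold change 0.09, 95% interval -0.14 to 0.31, limma adjusted p = 0.513). LEF1 was at 10.48, 9.92 and 8.29 FPKM and 9.01, 7.70 and 8.58 FPKM (-0.16, 95% interval -0.40 to 0.08, limma adjusted p = 0.247). TCF7L2 was at 4.51 to 4.88 FPKM and 4.63 to 4.96 FPKM (0.01, 95% interval -0.18 to 0.20, limma adjusted p = 0.910). In each of the 3 the groups overlapped. TCF7 passed without Control 2 (0.18, adjusted p = 0.0413). TCF7L1, a factor that mostly represses, was low at 0.12 to 0.18 FPKM. Whether the counting used strand is not given in the sources used here, so reads of these genes cannot be told apart from those of genes on the opposite strand that overlap them in GENCODE, such as SKP1 for TCF7, LEF1-AS1 for LEF1, PRSS23 for FZD4, FBXL14 for WNT5B, WNT5A-AS1 for WNT5A, BAALC-AS1 for FZD6, EPDR1 for SFRP4 and BCL2L14 for LRP6.

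Other genes of the pathway were followed in 7 lists, which held 109 different symbols, 80 of them tested; 46 of the 80 passed, 20 higher and 26 lower in siTEAD4. These are 25% and 32.5% of the 80, beside 26.1% and 18.8% of all genes tested. The lists, too, were chosen with earlier results of these data known, so the shares given for each are a description. Genes for WNT export and for modifying WNT outside the cell mostly fell, with 5 of 7 tested lower and 1 higher (median log2 fold change -0.58). WLS, the carrier that brings WNT to the cell surface, went from 28.1 ± 1.73 to 16.5 ± 0.820 FPKM (SD, n = 3; -0.73, limma adjusted p = 0.00022). The heparan sulfate proteoglycan gene GPC4 went from 18.8 ± 1.64 to 5.25 ± 0.0404 FPKM (-1.66), TRABD2B, which encodes a WNT-cleaving protease, from 5.92 ± 1.08 to 1.61 ± 0.114 FPKM (-1.40), and RECK from 9.37 ± 0.512 to 5.94 ± 0.690 FPKM (-0.58). PORCN, the enzyme that attaches the lipid to WNT, did not pass (-0.20, limma adjusted p = 0.160). The rise was that of TPBG (0.28, limma adjusted p = 0.0428), named after its value was seen, and its call ended in 11 alternatives, among them the 3 scalings and the 4 fits without Control 1 or any 1 siTEAD4 library.

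Receptors outside the Frizzled family also fell. Of 7 tested genes in the Kremen and non-Frizzled list, 5 were lower and none higher, at an adjusted or an unadjusted p under 0.05 in limma (median -0.73). At the adjusted p this is 71.4% lower, beside 18.8% of all genes tested. KREMEN1 and RYK did not pass. ROR1 and ROR2, tyrosine kinase-like receptors of WNT5A, were both lower, ROR1 going from 7.93 ± 1.66 to 2.77 ± 0.0656 FPKM (-1.23) and ROR2 from 8.32 ± 0.771 to 3.66 ± 0.215 FPKM (-0.999). The polarity receptor gene PTK7 went from 7.49 ± 0.529 to 3.14 ± 0.208 FPKM (-1.03), and KREMEN2, a receptor of DKK1, from 3.90 ± 0.855 to 1.93 ± 0.155 FPKM (-0.73). The limma adjusted p values of these 4 genes lay between 5.55e-05 and 0.00243. LGR4, the receptor of R-spondins, which protect Frizzled from ZNRF3, was the only tested gene of 6 in its list and went from 9.13 ± 2.24 to 3.43 ± 0.0404 FPKM (-1.17, limma adjusted p = 0.000435). LGR5 was at 0 in all 6 libraries, and RSPO2, RSPO3 and RSPO4 were at or under 0.12 FPKM.

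Of 12 tested Dishevelled and planar polarity genes, 4 were lower (33.3%, against 18.8% of all genes) and 3 higher (25%, close to the 26.1% of all genes). CELSR2 and CELSR1, which encode the large polarity cadherins, were both lower, CELSR2 going from 5.73 ± 0.834 to 1.13 ± 0.020 FPKM (-1.65) and CELSR1 from 24.2 ± 2.96 to 9.17 ± 0.330 FPKM (-1.30). VANGL1 (-0.61) and PRICKLE4 (-0.65) were the other falls, with limma adjusted p values from 1.12e-05 to 0.00249 for the 4. The 3 rises, named after their values were seen, were DVL1 (0.54), DAAM1 (0.47) and DVL3 (0.23), and 0 or 1 gene of the list rose without Control 3 or any 1 siTEAD4 library.

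Beta-catenin and its partners in the destruction complex fell in none and rose in 7 of 16 tested cases (median 0.27; at an unadjusted p under 0.05 limma gave no fall either, and after removal of the length and GC trends 1 fell). The share called in either direction, 43.8%, was close to the 44.9% of all genes, and the rises stood against 26.1%. The kinase gene CSNK1E went from 48.2 ± 3.35 to 68.2 ± 1.57 FPKM (0.49, limma adjusted p = 0.00125), and FBXW11 (0.48), TNKS2 (0.48) and USP7 (0.40) also rose. FBXW11 encodes a ubiquitin ligase subunit, and TNKS2 a tankyrase that promotes the degradation of AXIN. The count was 4 without siTEAD4 2, 2 without siTEAD4 3 and 4 with TMM-like scaling, and the calls of TNKS2 and FBXW11 were among those that ended. CTNNB1, which encodes beta-catenin, was at 141.36, 98.48 and 119.34 FPKM in Control and 148.83, 151.14 and 148.15 FPKM in siTEAD4, without overlap, and did not pass (0.33, limma adjusted p = 0.0529).

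Among 19 tested nuclear cofactors and repressors, 4 fell and 1 rose (median -0.12). The share that fell, 21.1%, was close to the 18.8% of all genes, and the share called in either direction was 26.3% against 44.9%. The corepressor genes TLE4 (11.2 ± 1.74 to 6.94 ± 0.208 FPKM, -0.61) and TLE2 (-0.50), the coactivator gene BCL9L (18.2 ± 1.35 to 11.7 ± 0.552 FPKM, -0.59) and CREBBP (-0.38) fell, the last not when Control 3 or any of the siTEAD4 libraries was left out (0.0652 to 0.0866). TLE2 passed the filter through the Control libraries alone, at 1.04 to 1.47 FPKM against 0.51 to 0.59 FPKM, and so had to differ. The rise was that of CTNNBIP1 (0.36), which encodes an inhibitor of beta-catenin and was named after its value was seen; its call ended without siTEAD4 1 or siTEAD4 2. Without Control 2, 8 of the list fell and 3 rose.

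Genes often used as beta-catenin targets did not move together, with 8 of 18 tested higher and 7 lower and a median of -0.0032. These are 44.4% and 38.9% of the 18, beside 26.1% and 18.8% of all genes tested. TNFRSF19 went from 6.82 ± 0.996 to 1.42 ± 0.170 FPKM (-1.69), the receptor gene EPHB2 from 26.9 ± 2.30 to 8.93 ± 0.140 FPKM (-1.49) and the protease gene MMP7 from 39.6 ± 1.40 to 14.4 ± 1.45 FPKM (-1.40). MYC went the other way, from 22.9 ± 0.695 to 48.0 ± 3.16 FPKM (1.04), with limma adjusted p values from 7.15e-06 to 2.87e-05 for these 4 genes. Several of the feedback genes that beta-catenin induces in many tissues were low. NKD1, NOTUM, SP5 and APCDD1 stayed at or under 0.15 FPKM in every library, beside LGR5 at 0, and NKD2 was at 0.14 to 0.28 FPKM. The feedback genes AXIN2 and ZNRF3, described above, were higher, at 1.51 to 2.81 and 3.25 to 5.56 FPKM over the 6 libraries.

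**Figure D4:**
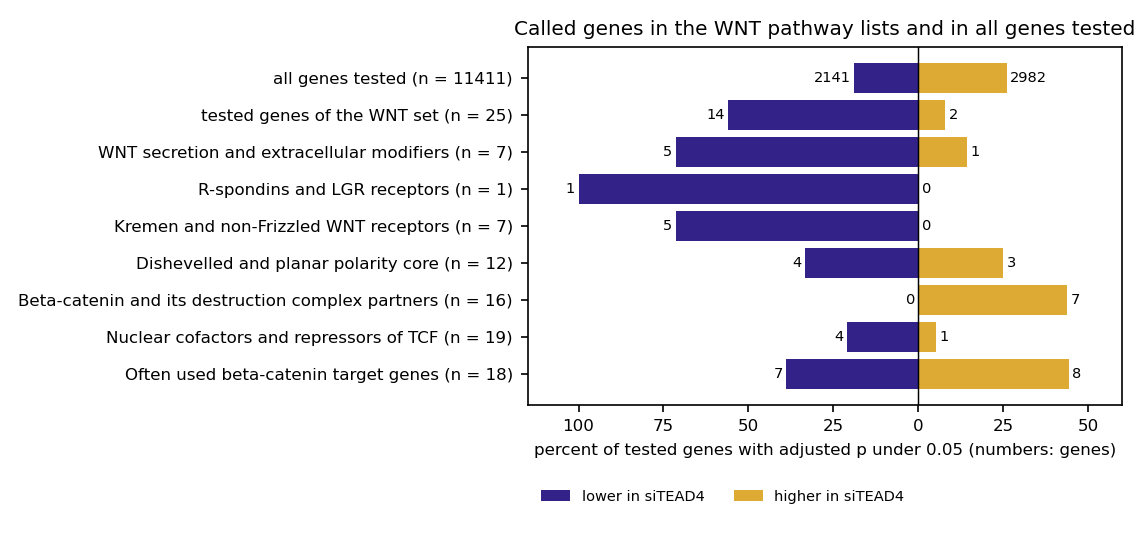
Share of tested genes with an adjusted p under 0.05, lower (left) and higher (right) in siTEAD4, for all genes tested, the 25 tested genes of the WNT set and 7 further lists; the numbers are genes. The lists of extracellular modifiers and of receptors lie mostly to the left, and that of beta-catenin and its partners lies to the right only.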

How the data were processed

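The libraries hold 786-O RNA, extracted with Trizol and read on a BGISEQ-500, according to the labels. The authors deposited 1 table a library with 18126 symbols and FPKM values rounded to 2 decimals, per the file headers; that of Control 1 names no unit and was taken as FPKM from its symbols, decimals and range. Per the submitters' processing notes the build was GRCh38. Aligner, counting tool and annotation: not given in the sources used here. FPKM carries no depth, and a few abundant genes can shift all others.

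Groups follow the sample titles. Values were fitted as log2(FPKM + 1) with limma 3.58.1 in R 4.3.3 (lmFit, eBayes with a mean-variance trend, group as the only term), for 11411 genes that reached 1 FPKM in 3 or more of the 6 libraries, and adjusted by Benjamini-Hochberg over all of them, with a threshold of 0.05. The fit was tested on simulated data. TEAD4 also had an exact permutation test. Genes were named by rule: all members at 1 FPKM or more, and up to 4 called genes per list with the largest change. The members and lists were chosen with earlier results of these data known. A lineage marker gene is not reported here. Coordinates and lengths came from GENCODE release 29, and promoters from RefSeq.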

Additional observations from a re-analysis of the deposited data

How the results depend on the processing

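With 3 libraries a group and no counts, the depth limits of low genes are unknown. The calls of FZD1, FZD2, FZD5, FZD6, FZD7, FZD8, LRP5, LRP6, DKK3 and SFRP2 held in every alternative in which they could be fitted (18 or 19 each). SFRP4 and WNT10B kept theirs in the 17 in which they could be fitted. They had passed the filter through the Control libraries alone, so this adds no support to their calls. The whole table gave 5123 called genes, 3087 at an adjusted p under 0.01 and 3415 to 6689 without 1 library. Of the 25 WNT genes tested, 14 were lower, 12 to 15 without 1 library and 7 of 12 with a filter of 5 FPKM; 2 were higher, 1 to 3 without 1 library, and 1 after rescaling to 1 median, with TMM-like scaling or at an adjusted p under 0.01. A fit with a replicate block called 5180 genes, 14 WNT genes lower and 2 higher, and no WNT gene changed its call. Deviations of libraries with the same number correlated at -0.163, 0.272 and 0.090, and not each library correlated best with the one of its number. The labels do not tell whether libraries of the same number were paired. With so few libraries these correlations cannot decide it. All values that turned sign belonged to genes that did not pass in either setting. FZD3 was at -0.0253 after rescaling to 1 median, -0.0289 with TMM-like scaling and -0.0326 with length and GC trends removed. FZD4 was at -0.167 to 0.0443 without 1 library, above 0 without Control 1 or siTEAD4 1, and 0.0373 with quantile normalization. APC was at -0.0658 to 0.257 without 1 library, below 0 without Control 2. TCF7L2 was at -0.0131 to 0.0370 without 1 library, below 0 without Control 3 or siTEAD4 3, -0.0478 after rescaling to 1 median, -0.0522 with TMM-like scaling, -0.0066 with quantile normalization and -0.0321 with length and GC trends removed. The cause was not tested. In the 7 further lists, 46 genes were called, 34 to 55 without 1 library.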

Other observations

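Of the 47 genes, 4 pairs of WNT ligand genes lie within 200 kb of each other in GENCODE release 29. WNT10B and WNT1 on chromosome 12 are 6690 bases apart; WNT10B was at 1.29 ± 0.131 FPKM in Control (SD, n = 3), while WNT1 was at 0 in all 6 libraries. WNT6 and WNT10A on chromosome 2 are 6130 bases apart and were both low, at 0.03 to 0.09 and 0.12 FPKM in Control, and at 0 and 0 to 0.03 FPKM in siTEAD4. WNT3 (1.50 ± 0.124 FPKM in Control) neighbours WNT9B (0.190 ± 0.0964 FPKM) on chromosome 17. WNT3A and WNT9A on chromosome 1 were at 0 in all 6 libraries.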
